A study of Mus musculus with 15 samples.

Results

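RNA polymerase II (Pol2) peaks that carried no called methylation of histone H3 lysine 4 (H3K4) were examined in αTN4 cells with a control shRNA. A Pol2 peak was included when it shared not even 1 bp with any region called for H3K4me1, H3K4me2 or H3K4me3 in the same cells. This held for 420 of 17204 Pol2 peaks, or 2.44% (95% Wilson interval 2.22 to 2.68%). The peaks were thus chosen by the measured H3K4 lists of the control cells, and their lack of methylation there is no finding. They are called unmethylated peaks below, and the other 16784 are called methylated peaks. The name refers to lists of called regions, and weaker methylation under the callers' thresholds is not seen by it. Of all Pol2 peaks, 40.5% overlapped H3K4me1, 95.1% overlapped H3K4me2 and 68.6% overlapped H3K4me3.

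αTN4 is a mouse lens epithelial line transformed with SV40 T antigen. The control cells and the Pax6 knockdown (KD) cells are stable lines made with lentivirus that carried a control or a Pax6 shRNA and selected with puromycin for 14 days, and the third source of chromatin was the lens of newborn CD-1 mice at postnatal day 1. Pol2 was profiled in the control line alone, the 3 H3K4 marks in the control and Pax6 KD lines, and H3K4me2 in newborn lens, with 1 deposited list of regions per mark and condition. Peak names in the control H3K4me2 list state that replicates were joined, and no list separates replicates, so differences have no replicate check and intervals cover counting error only. In the sample labels the antibody entries of the Pol2 and Pax6 libraries are exchanged relative to the titles, and the titles were followed; 71.6% of the peaks in the list titled Pol2 lay within 2 kb of a transcript start. Of 8 lens markers, 5 (Pax6, Prox1, Cdh2, Cryab and Cryaa) had H3K4me3 and Pol2 peaks at a start, and Foxe3, Cdh1 and Gja1 had neither.

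Pol2 transcribes protein-coding genes and many non-coding RNA genes. At active promoters H3K4me3 surrounds the transcript start, H3K4me2 extends beyond it, and H3K4me1 marks enhancers and the edges of promoters. Past the polyadenylation site the polymerase continues before it terminates, so it can be found downstream of the annotated end of a gene, where H3K4 methylation is usually low. Pol2 also transcribes the genes of the U1, U2, U4, U5, U11 and U12 small nuclear RNAs (snRNAs), which form the spliceosomes. These genes are short, without introns, and have promoters of their own kind.

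The strongest unmethylated peaks lay on snRNA genes, and a U1 and a U2 gene are shown from 5′ to 3′ as read from mm9. The U1 gene with the highest fold enrichment lay at chr11:87240218-87240381 (plus strand, in an intron of Tex14) and the single U2 gene at chr11:101466164-101466354 (plus strand, between protein-coding genes). Capitals mark the stretch of U1 that pairs with the 5′ splice site, and the stretch of U2 that pairs with the branch site.
U1 chr11: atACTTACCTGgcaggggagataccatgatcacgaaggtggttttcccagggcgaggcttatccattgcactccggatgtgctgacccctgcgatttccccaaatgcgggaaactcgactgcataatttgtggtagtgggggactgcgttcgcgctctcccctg
U2 chr11: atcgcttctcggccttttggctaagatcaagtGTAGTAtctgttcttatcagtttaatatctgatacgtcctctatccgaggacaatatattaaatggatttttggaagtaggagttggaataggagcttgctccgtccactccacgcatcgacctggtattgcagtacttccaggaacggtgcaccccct

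For peaks away from snRNA genes, 101 bp of mm9 plus strand around the summit are shown for the unmethylated peak of highest fold enrichment in each of 4 kinds of place, among those whose window touched no annotated exon. Capitals mark matches, on either strand, to the polyadenylation hexamer AATAAA, the promoter motif TATAAA, the GC box GGGCGG or the AP-1 site TGACTCA. The windows are at chr8:125629754-125629854 (660 bp past the end of Rpl13), chr4:128735269-128735369 (start of Rnf19b), chrX:166645897-166645997 (between genes, Mid1 the nearest) and chr13:113616345-113616445 (intron of Ppap2a).
Rpl13 end: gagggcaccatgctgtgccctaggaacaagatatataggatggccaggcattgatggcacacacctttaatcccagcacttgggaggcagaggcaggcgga
Rnf19b start: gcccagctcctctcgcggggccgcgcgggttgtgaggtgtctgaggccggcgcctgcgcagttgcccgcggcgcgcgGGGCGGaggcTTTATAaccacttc
Mid1 intergenic: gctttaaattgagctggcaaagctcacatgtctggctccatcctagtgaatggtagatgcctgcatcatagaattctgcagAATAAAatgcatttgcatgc
Ppap2a intron: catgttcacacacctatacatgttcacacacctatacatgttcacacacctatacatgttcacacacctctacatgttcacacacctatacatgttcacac
The Rnf19b window was 73.3% G and C, with a GC box and a TATA-like match. The Ppap2a window was a tandem repeat, with 98.5% of its bases equal to the base 36 positions further on.

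Unmethylated peaks lay most often at the ends of protein-coding genes. By the position of the summit, 195 of 420 (46.4%, 41.7 to 51.2%) fell in a gene-end window, from 1 kb before to 5 kb past an annotated end and not within 2 kb of a protein-coding transcript start. Of all Pol2 peaks 5% fell in that class, of methylated peaks 666 (3.97%, 3.68 to 4.27%), and the windows made up 4.03% of the genome. Seen from the other side, 22.6% of Pol2 peaks in gene-end windows (20 to 25.6%) were unmethylated, against 0.901% of those at gene starts. A second group of 111 unmethylated peaks (26.4%) lay within 2 kb of a start, where 72.7% of methylated peaks lay. Since H3K4 methylation itself gathers at starts, the rule that chose the peaks lowers this share and raises the others. With peaks at starts set aside, gene ends held 195 of 309 unmethylated peaks (63.1%, 57.6 to 68.3%) and 666 of 4578 methylated peaks (14.5%, 13.6 to 15.6%). The intervals did not overlap. The rule also used H3K4me1, which marks enhancers away from starts. It thus shapes this base as well, and the size of the difference is partly set by it. When the starts of all annotated transcripts counted, non-coding ones included, 44.5% of unmethylated peaks lay at starts and 35% at ends. In another setting, 828 peaks had a summit outside methylated regions: the 420, and 408 that overlapped such a region elsewhere. Of these 828, 51.9% lay at starts of protein-coding transcripts and 26.2% at ends.

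As shares of all peaks of a set, starts included, the remaining classes differed little between the sets. Introns of protein-coding genes held 35 unmethylated peaks (8.33%, 6.05 to 11.4%), against 7.89% of all Pol2 peaks and 7.88% of methylated ones. Space between genes held 56 (13.3%, 10.4 to 16.9%), against 12.2% of all Pol2 peaks. Non-coding RNA genes outside these classes, with 2 kb on each side, held 15 (3.57%, 2.18 to 5.81%), against 2.33% of all Pol2 peaks and 2.30% of methylated ones. Exons outside the start and end windows held 8 (1.90%, 0.968 to 3.71%), against 0.971% of all Pol2 peaks and 0.947% of methylated ones. In each of these 4 classes the intervals overlapped. This depends on the base. With peaks at starts set aside, introns held 35 of 309 unmethylated and 1322 of 4578 methylated peaks. Space between genes held 56 and 2045, non-coding RNA genes 15 and 386, and exons 8 and 159. On that base each of the 4 held a smaller part of the unmethylated peaks. Parts of the same base are linked, so the larger part at gene ends lowers the others. No intervals were computed for these parts, and exons held only 8 peaks.

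**Figure D1:**
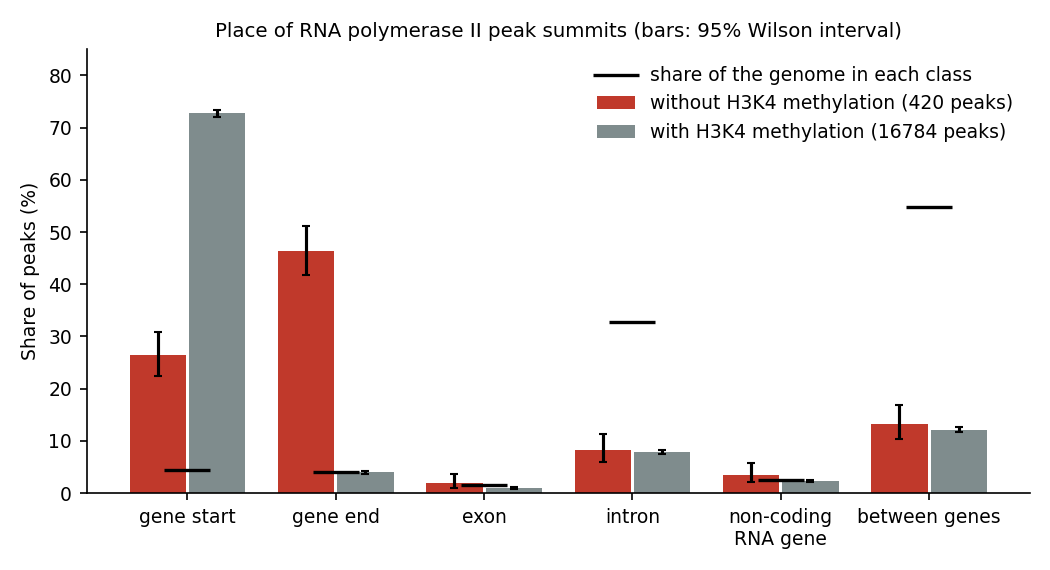
Share of Pol2 peak summits (%) in 6 kinds of place for 420 unmethylated (red) and 16784 methylated peaks (grey), with 95% Wilson intervals, and the share of the genome in each class as a black line. Gene ends held 46.4% of unmethylated and 3.97% of methylated peaks, and gene starts held 26.4% and 72.7%.

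At gene ends the peaks gathered in the first kilobases past the end. The median position of the 195 was 935 bp past it (quartiles 372 and 1576 bp), and that of methylated peaks in the same windows was 1657.5 bp. The summit was downstream of the end in 161 (82.6%, 76.6 to 87.2%) and in 83.2% of those methylated peaks, and 83.3% of the window itself lies downstream, so these shares show no side. Around the nearest end of any protein-coding gene, whatever the class, 19.5% of unmethylated peaks fell in the first kilobase past it and 15% in the second, against 10.5% in the last kilobase before it and 5.95% in the one before that. For methylated peaks these shares were 3.26%, 3%, 2.01% and 2.08%. From 3 kb onwards the shares of unmethylated peaks were below 2%. Inside gene bodies, 55 of 200 unmethylated peaks (27.5%) lay in the last 10% of the length of the gene and 46 (23%) in the first 10%, whereas 68.6% of 10648 methylated peaks lay in the first and 2.91% in the last.

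**Figure D2:**
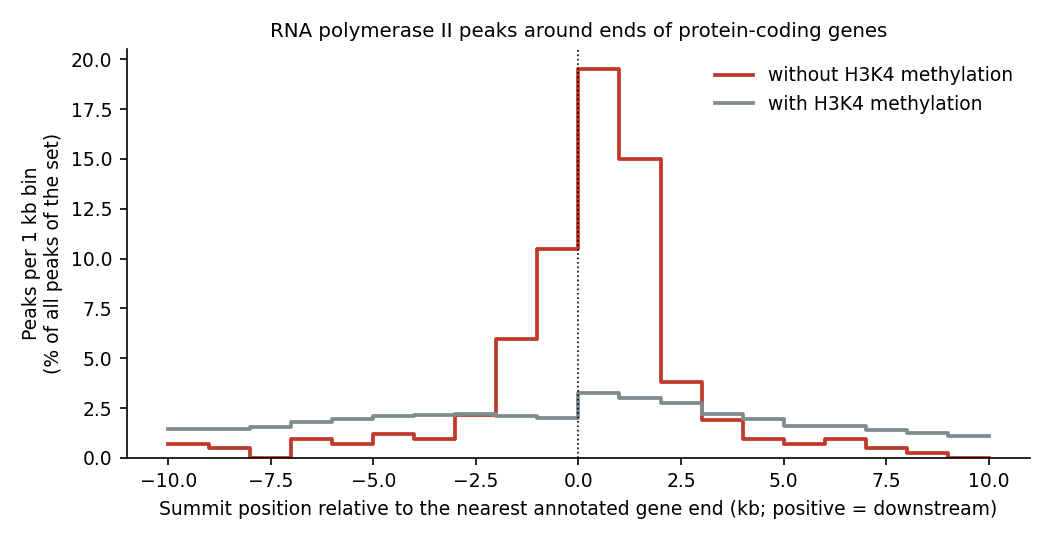
Pol2 peaks in each 1 kb bin, as a percentage of all peaks of the set, by the distance of the summit from the nearest annotated end of a protein-coding gene (kb, positive downstream), for unmethylated (red) and methylated peaks (grey). Unmethylated peaks reach 19.5% in the first kilobase past the end, where methylated peaks reach 3.26%.

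With each peak credited to the nearest end alone, the 195 peaks lay at the ends of 156 genes. Of the 195, 57 lay in the end windows of more than 1 gene, and the other genes of those windows are not among the 156 through that peak. The peak 338 bp past Rpl10 was thus credited to Dnase1l1, whose end was nearer. Among those of high fold enrichment over background, as the authors' peak caller gave it, the peak near the ends of Sbno2 and Gpx4 had a fold of 10.5. Gpx4 encodes a glutathione peroxidase that reduces lipid peroxides. Past the end of Rpl13, a protein of the large ribosomal subunit, the fold was 10.3, as it was 193 bp before the end of 5930434B04Rik. Past Rpl10 the fold was 9.96, past Plk2, a polo-like kinase, 9.24, and past Snhg12, a host gene of small nucleolar RNAs, 9.05, inside the neighbouring Trnau1ap. Past Hspa8, the constitutive Hsc70 chaperone, the fold was 8.80 over 1939 bp.

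Genes with such a peak at the end had strong Pol2 peaks at their start. A Pol2 peak within 2 kb of a start was present in 146 of the 156 genes (93.6%). H3K4me3 was present there in 147 (94.2%), against 96.7% of other genes with a start peak and 49.0% of all protein-coding genes. The other genes with a start peak can thus include neighbours that share such a peak. With any summit in the end window counted for every gene, near a start or not, 240 genes had an unmethylated peak there. Of these, 71 had a methylated Pol2 peak there as well. The highest fold at the start had a median of 23.4 (quartiles 16.7 and 31.8) in those 146 genes and 14.9 (10.3 and 20.5) in 10522 other genes with a start peak. A fold above 20.5, the upper quartile over all genes with a start peak, was reached by 92 of 146 (63.0%). Genes with a methylated Pol2 peak at the end and a peak at the start had a median of 19.8. The genes with an unmethylated end peak were also short, with a median length of 5.82 kb against 22.7 kb for the other genes with a start peak, and genes with a methylated Pol2 peak at the end were short as well (8.53 kb, quartiles 3.86 and 21.5 kb). In 58 of 156 (37.2%, 30.0 to 45.0%) the end of a convergent gene on the other strand lay within 5 kb, against 24.6% of the other genes with a start peak (23.7 to 25.4%) and 20.2% of genes with a methylated peak at the end (16.9 to 23.8%). The share of the signal that belongs to either gene of such a pair cannot be told apart in these unstranded data.

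**Figure D3:**
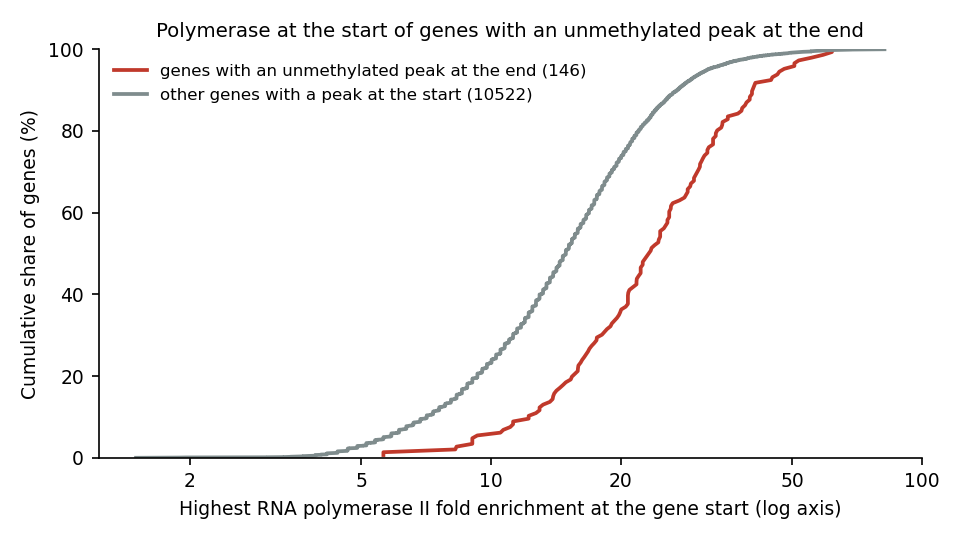
Cumulative share of genes (%) by the highest Pol2 fold enrichment within 2 kb of a start (log axis), for 146 genes with an unmethylated Pol2 peak at the end (red) and 10522 other genes with a start peak (grey). The red curve lies to the right of the grey one, with medians of 23.4 and 14.9.

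Of 22380 protein-coding genes, 354 (1.58%) had at least 1 unmethylated peak in the body or up to 5 kb past the end, 83 had at least 2, 18 at least 3 and 8 had 4. Neighbouring peaks of 1 gene often form a single stretch of Pol2: with peaks closer than 1 kb joined, 1 gene had 3 or more, and with a fold of at least 5 asked of each peak, 0 did. Rps12, which encodes a protein of the small ribosomal subunit, had 4 peaks of fold 4.16 to 6.85 between 905 and 4046 bp past its end, at chr10:23500742-23504380. Rpl37a, of the large subunit, had 4 of fold 3.93 to 6.19 between 280 and 3441 bp past its end on chromosome 1. These series of peaks reached several kilobases beyond genes that are themselves 2.03 and 2.55 kb long.

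The other genes with most peaks shared them with a neighbour. Hnrnpa2b1, an RNA-binding protein of the hnRNP family, and the convergent Nfe2l3, a transcription factor, shared 4 peaks of fold 3.67 to 5.87, which lay 1325 to 4063 bp past the end of Hnrnpa2b1 and mostly inside Nfe2l3. Pmpca, a subunit of the mitochondrial processing peptidase, and Inpp5e, an inositol phosphatase, shared 4 peaks of fold 3.67 to 4.40. Fam69b, the overlapping model Gm20532 and the host gene Snhg7 shared 4 of fold 3.63 to 5.14. Ggcx, the vitamin K-dependent carboxylase, and Mat2a, which makes S-adenosylmethionine, the donor of methyl groups, shared 3 of fold 3.22 to 8.32. Those of 8.32 and 4.86 lay between their convergent ends, and that of 3.22 lay inside Mat2a, 1052 bp before its end. Spsb3, Eme2 and Mapk8ip3 shared 3 of fold 4.70 to 6.11. Marcks, a substrate of protein kinase C, had 3 peaks to itself, 970 bp past its end, 213 bp before it and in an exon, with folds of 4.39 to 6.11. Gm20388, annotated as a read-through gene of 4435 kb, held 3 peaks that belong to shorter genes inside it.

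Lists of genes with known roles were compared with these numbers. Among ribosomal protein genes, 32 of 78 (41.0%, 30.8 to 52.1%) had an unmethylated peak, 50 peaks in all, against 1.58% of all protein-coding genes and 3.02% of those with a Pol2 peak at the start. The gene-end class leaves out summits within 2 kb of a start and credits each peak to the nearest end. By it, 22 of 78 (28.2%) had an unmethylated peak at the end. These genes have a median length of 3.23 kb. With any summit in the end window counted for every gene, 31 of 78 (39.7%) had an unmethylated peak there, against 2.07% of genes with a start peak. A methylated one was there in 37 (47.4%), against 17.8%. Both kinds were found at 9 ribosomal protein genes. Their starts were strongly occupied, with a median fold of 30.1 over the 74 genes with a start peak. Besides Rps12 and Rpl37a, the genes with most peaks were Rpl23 and Rps27a, with 2 each and a highest fold of 6.11 and 5.62.

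Shares were lower in the other lists with strong Pol2 at the start, with wide intervals. Translation factors had a median start fold of 29.8, and 4 of 20 had an unmethylated peak: Eif4a2 (fold 7.09), Eef1b2 (6.24), Ncl (3.81) and Eif2s2 (3.02). Cytoskeleton genes had a median start fold of 30.4, and 0 of 31 had an unmethylated peak (upper bound of the interval 11%), while 7 had a methylated peak at the end. Glycolysis genes had 0 of 15, with 4 methylated end peaks. Immediate early genes, which respond fast to stimuli, had a median start fold of 33.0 and 1 unmethylated peak, at Egr1 (fold 4.89, 543 bp past its end), against 9 of 27 with a methylated peak at the end. Chaperones had 2 of 22, Hspa8 and Hspa5 (2 peaks, highest fold 4.23), with methylated end peaks at 11.

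Extracellular matrix genes had 4 of 28: Col6a1 and Timp1 with 2 peaks each, Thbs1 (fold 5.34, 935 bp past the end) and Serpinh1, a collagen chaperone (fold 4.40, 124 bp past the end). Among replication-dependent histone genes 1 of 67 had an unmethylated peak, Hist1h2ba with a fold of 9.54. These genes have a median length of 0.53 kb, so the end window also takes in the start, and 51 of them had a methylated peak in it. Lens markers had 0 of 25, with 8 occupied at the start. The lists were put together with results of these data known, and no list was tested. Of 23 annotated genes on a list of known non-coding RNAs, 3 (13.0%, 4.54 to 32.1%) had an unmethylated peak in the body or up to 5 kb past the end. These were Snhg7, Snhg12 and Snhg3. The strongest peaks of Snhg7 and Snhg12 lay 2817 and 1134 bp past their ends. By overlap with the gene itself, Snhg3 was found but Snhg7 and Snhg12 were not. By overlap, 0.315% of all 9216 annotated non-coding RNA genes had a peak. No such share was computed with the 5 kb past the end.

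Non-coding RNA genes were overlapped by unmethylated peaks in 29 cases, or in 76 when 2 kb around each gene counted. Of 9216 annotated non-coding RNA genes, 13.8% (1268) lay under any Pol2 peak, and the 29 are 2.29% of those, close to the 2.44% of all Pol2 peaks that were unmethylated. By type the 29 were 12 snRNA, 6 long intergenic non-coding RNA, 6 processed transcript, 4 microRNA and 1 small nucleolar RNA genes. Of the 45 snRNA genes under a Pol2 peak 12 were under an unmethylated one (26.7%). The numbers were 4 of 69 (5.80%) for microRNA genes, 6 of 393 (1.53%) for processed transcripts, 1 of 75 (1.33%) for small nucleolar RNA genes and 6 of 677 (0.886%) for long intergenic ones. Peaks on snRNA genes made up 2.86% of unmethylated peaks (1.64 to 4.93%) and 0.191% of methylated peaks (0.135 to 0.269%).

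These 12 peaks included 7 of the 10 unmethylated peaks of highest −log10 q. The U5 gene in the Hhat intron had a fold of 33.1 and a −log10 q of 264, over 1606 bp, 1979 bp from the nearest methylated region. The U1 gene in the Tex14 intron had 28.9 and the U2 gene near Tmem106a had 21.0. On chromosome 12, 4 U1 genes within chr12:55815205-55835705 had 16.9, 15.9, 11.1 and 9.05. The second U5 gene had 14.4, and 2 U1 genes in introns of Ss18 and Rock1 had 11.2 and 10.3. A U12 gene at chr5:7177706-7177856 and a U1 gene at chr19:18807231-18807394 had 6.60 each, and the U12 gene lay 789 kb from any methylated region. The fold was above 10 on 9 of the 12.

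The snRNA genes under methylated peaks were more strongly occupied, with a median fold of 46.7 over 33 genes, up to 92.7, against 12.8 over the 12. U1 had 206 annotated copies, of which 17 lay under a Pol2 peak and 8 under an unmethylated one. For U5 these numbers were 10, 7 and 2, for U2 51, 7 and 1, and for U12 6, 2 and 1. U6 and 7SK, which are transcribed by RNA polymerase III, had 3 of 936 and 0 of 331 copies under a Pol2 peak. U1 copies without a Pol2 peak had a median identity of 72.3% to the printed U1 gene, the 9 under methylated peaks 96.4% and the other 7 under unmethylated peaks 99.4%. Of the 9, 3 were identical to it, as were 3 of the 7. Reads from identical copies, also between those under methylated and unmethylated peaks, cannot be assigned to 1 of them, so the values of single U1 genes are uncertain. Flanking sequence can separate them, and its part was not tested.

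The remaining peaks of the first 10 were 1 on chromosome X between genes (chrX:166645748-166646480, fold 12.7, 434 bp from a methylated region) and 2 at the starts of Iffo2 (15.7) and Magi3 (13.9), a scaffold protein of cell junctions. Among long non-coding genes, 1700086P04Rik had a fold of 11.5 at its start, which it shares with the divergent Rnf19b, 48 bp from a methylated region. A peak in Gm17683 had 9.48. The peak in Gm17403 had 6.94 and lay 173 bp from a start of the protein-coding Pcbp2. The peak at the start of Gm13594 had 6.85 and lay 70 bp from a start of the protein-coding Cobll1. Snhg3, a host of small nucleolar RNAs, had a peak of 5.38 in its body, within 2 kb of a protein-coding transcript start. Between genes, the next in fold were a peak nearest to 4930452B06Rik (12.7, 9.59 kb from a methylated region) and 1 of 3993 bp nearest to Rab30 (9.78), the widest of all 420. In introns away from snRNA genes, the folds reached 7.83 in the Ppap2a repeat and 7.09 in Pitpna. A second peak between genes near Mid1 on chromosome X had 7.70, 528 bp from a methylated region.

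Mir25 and Mir93 lie together in an intron of Mcm7, a subunit of the replicative helicase, and were covered by a single unmethylated peak of fold 4.65 and 563 bp at chr5:138606353-138606915. Mir351 on chromosome X was covered by a peak of fold 4.16. The mature sequences (RefSeq, GRCm38.p6) are given with the seed, bases 2 to 8, in capitals, because the seed decides the targets.
miR-25-3p: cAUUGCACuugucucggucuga
miR-93-5p: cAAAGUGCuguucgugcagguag
miR-351-5p: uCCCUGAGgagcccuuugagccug
The 3 seeds differ from each other, also between the 2 microRNAs of Mcm7. The fourth microRNA gene, AC166172.1 inside Pknox1, was touched at its edge by a peak of fold 5.87. The summit of that peak lay 101 bp from a protein-coding transcript start, and the peak was 316 bp from a methylated region.

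Unmethylated peaks were weaker and narrower than methylated ones. Their median fold was 4.65 (quartiles 4.02 and 6.11) against 10.0, and their median width 318.5 bp against 637 bp. The share of unmethylated peaks fell over the quartiles of fold of all Pol2 peaks, from 6.65% (5.94 to 7.43%) in the lowest to 2.55%, 0.466% and 0.0930% in the highest, which held 4. A wide peak has more chance to touch a methylated region, so width and the rule are linked. Peaks at gene ends were wider (median 397 bp, upper quartile 735.5 bp) than those at starts (269 bp). Over the same quartiles of fold, the share of unmethylated peaks that lay at gene ends fell from 51.4% to 39.1%, 25% and 0 of 4, and that of methylated peaks from 8.24% to 4.45%, 2.06% and 1.40%. With a fold of at least 8, 13 of 43 unmethylated peaks (30.2%, 18.6 to 45.1%) and 1.84% of 10051 methylated peaks (1.6 to 2.12%) lay at ends, and 16 of the 43 lay at starts.

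**Figure D4:**
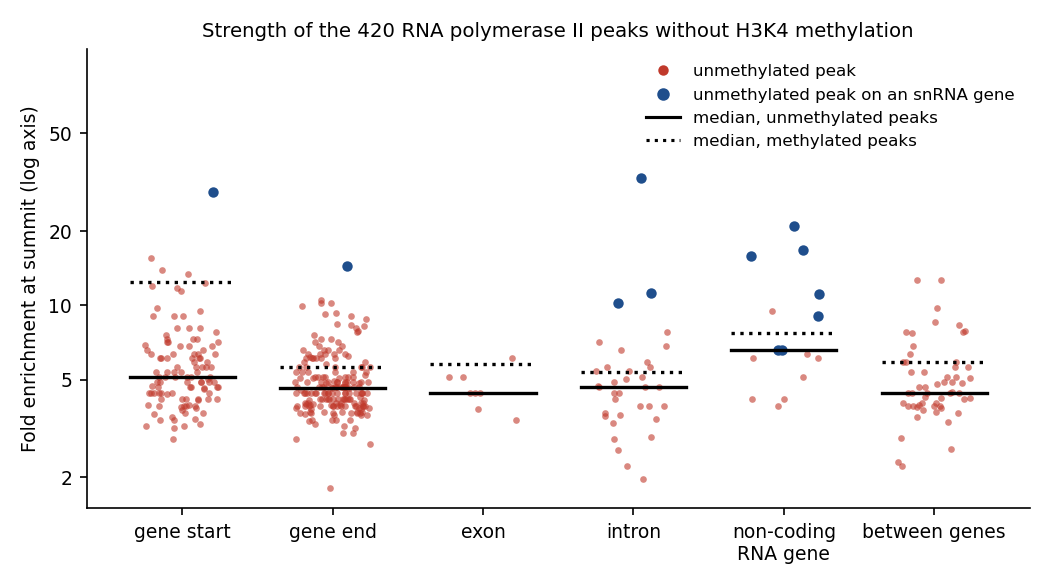
Fold enrichment at the summit (log axis) of each of the 420 unmethylated Pol2 peaks by place, with peaks on snRNA genes in blue, medians of unmethylated peaks as full lines and medians of methylated peaks as dotted lines. At gene starts the medians were 5.14 and 12.5, and 9 of the 12 blue points lie above 10.

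Distance to methylated chromatin separated the peaks at starts from the rest. The nearest methylated region was a median of 1426 bp away over all 420, 1567 bp at gene ends, 2935 bp in introns and 5633 bp between genes, but 236 bp at gene starts. Of the 111 peaks at starts, 72 (64.9%) lay within 500 bp of a methylated region and 42 (37.8%) had one within 500 bp on both sides, against 2 of 195 at gene ends. The peaks at the starts of Iffo2 (15.7, 26 bp from the start and 150 bp from a methylated region), Magi3 (13.9), Tmem164 (13.5) and Dtx2 (12.3, 31 bp) are among the 111. At the threshold of the rule, the peak at the start of Strbp touched a methylated region without sharing a base, and those at the end of 2810432D09Rik and the start of Tmem201 were 4 and 6 bp away. Just outside it, the peaks near Prkaca, 2410002F23Rik and Sh2d1b2 shared 1, 3 and 8 bp with a methylated region. Another 408 methylated peaks had a summit outside every methylated region.

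Sites without H3K4 methylation in control cells were mostly without it in the other libraries. In Pax6 KD cells 50 of 420 (11.9%, 9.15 to 15.4%) overlapped any of the 3 marks, against 96.7% of all Pol2 peaks and 98.8% of methylated ones. Among all 828 peaks with the summit outside methylated regions, the 420 unmethylated peaks included, the share was 50.7%. By mark, 32 (7.62%) overlapped H3K4me1, against 23% of all Pol2 peaks, 14 (3.33%) overlapped H3K4me2, against 94.1%, and 7 (1.67%) overlapped H3K4me3, against 66%. Those 50 lay closer to methylated regions of control cells (median 606 bp) than the other 370 (1487 bp). At gene ends 19 of 195 (9.74%) overlapped a mark in KD cells, 17 of them H3K4me1 and 0 H3K4me3.

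In newborn lens, H3K4me2 overlapped 56 unmethylated peaks (13.3%, 10.4 to 16.9%), against 83.3% of all Pol2 peaks and 85.1% of methylated ones. A lens region within 1 kb was present at 33.1%. The lowest share was at gene ends, with 11 of 195 (5.64%, 3.18 to 9.82%), against 56.8% of methylated peaks there (53.0 to 60.5%). On snRNA genes the share was higher: 7 of the 12 (58.3%, 32.0 to 80.7%) overlapped lens H3K4me2, although 0 of 12 overlapped a mark in KD cells. The lens peaks were on the U1 gene in Tex14, the U2 gene, the 4 U1 genes of chromosome 12 and the U5 gene of chromosome 4. The 4 U1 genes of chromosome 12 are neighbours and 99.4 to 100% identical to the one in Tex14. Reads can be shared among them, so the 12 are not independent and the interval is too narrow. The part of shared reads in the lens peaks was not tested. In all, 320 unmethylated peaks (76.2%, 71.9 to 80%) had no region in either source. Pax6 peaks overlapped 0 of 420 unmethylated peaks, for which 3 counts would be 0.714% and the upper bound of the Wilson interval is 0.906%, and 98 of all Pol2 peaks (0.57%).

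**Figure D5:**
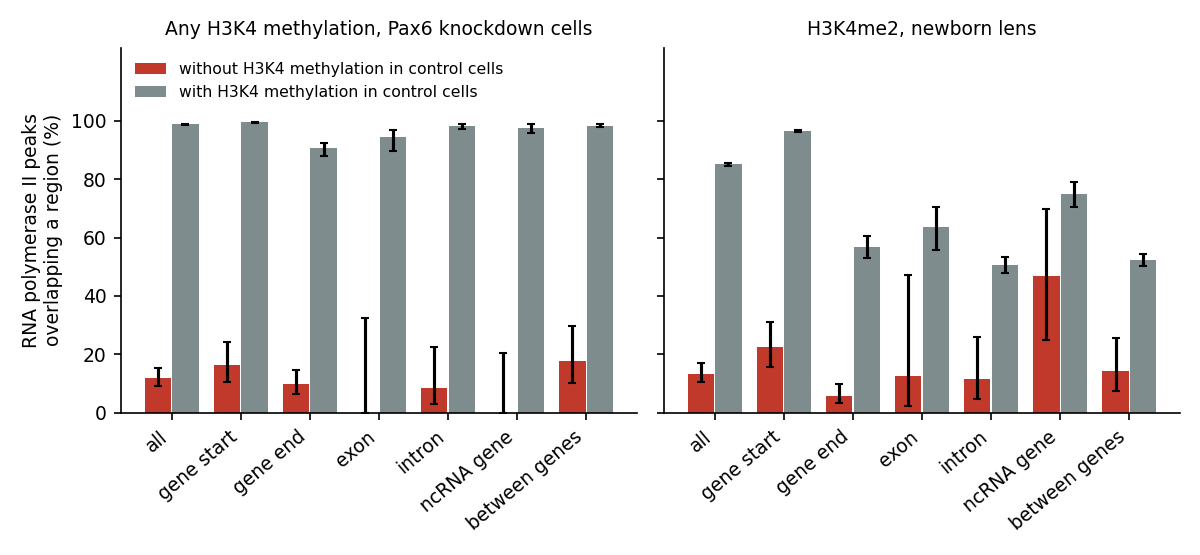
Share of unmethylated (red) and methylated (grey) Pol2 peaks of control cells that overlapped any H3K4 mark in Pax6 KD cells (left) or H3K4me2 in newborn lens (right), in all and by place, with 95% Wilson intervals. Over all places the shares were 11.9% and 98.8% on the left and 13.3% and 85.1% on the right.

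The DNA under unmethylated peaks was poorer in G and C. In 200 bp around the summit the median was 48.0% against 59.5% under methylated peaks, and the ratio of observed to expected CpG was 0.199 against 0.667. At gene ends the medians were 45.5% and 0.145, against 53.5% and 0.273 for methylated peaks in the same class. At starts they were 58.0% and 0.571, against 62.5% and 0.764. The hexamer AATAAA, searched on both strands, was found in 24.1% of windows of unmethylated peaks at gene ends (18.6 to 30.6%) and in 13.2% of those of methylated peaks there (10.9 to 16.0%). GGGCGG was found in 1.54% (0.525 to 4.42%) and 15.6% (13.1 to 18.6%). Since AATAAA is common in A and T rich sequence, the difference in base composition stands beside it, and its part was not tested. TATAAA was found in 12.4% of all unmethylated windows and 4.85% of methylated ones. TGACTCA was found in 3.10% (1.82 to 5.22%) and 4.37% (4.07 to 4.69%), with overlapping intervals. These pooled shares mix places, and at starts, where most methylated peaks lay, 2.29% of methylated windows held it. At gene ends the shares were 3.08% (1.42 to 6.55%) of unmethylated and 7.66% (5.87 to 9.93%) of methylated windows. Between genes they were 3.57% (0.985 to 12.1%) and 10.7% (9.44 to 12.1%). In each class the unmethylated share was lower, with overlapping intervals.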

How the data were processed

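The 9 lists of regions used here, 1 per mark and condition, came from chromatin of control and Pax6 KD αTN4 cells and newborn lens. The authors used Bowtie to map the reads on mm9, and left out blacklisted regions. H3K4me1 islands were called by SICER (200 bp windows, 600 bp gaps, FDR 0.001), and the other libraries were called by MACS2. Peak names in the control H3K4me2 list state that replicates were joined. The MACS2 lists hold the deposited fold (a ratio over background), the −log10 of p and q, and a score. The SICER lists hold the deposited counts of ChIP and control reads per island, the fold, the p-value and the FDR. SICER counts add up to 3289553 ChIP reads in control islands and 1849269 in KD islands. MACS2 lists leave the depth unknown. The submitters' processing notes name MACS2, SICER, TopHat2, Cufflinks and Cuffdiff. RNA-seq and input libraries were not analysed here.

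Overlap means at least 1 bp. Summits were placed, in this order, within 2 kb of a start of a protein-coding transcript (51733 in GENCODE vM1, mm9), from 1 kb before to 5 kb past the end of a protein-coding gene (22380), in an exon or intron of such a gene, at a non-coding RNA gene (9216) with 2 kb around it, or between genes. The 95% Wilson interval of a share covers the error of counting alone, and with 1 list per mark and condition no test was run. Interval code was tested on simulated data. Sequences were read with pysam 0.24.0, intervals computed with SciPy 1.17.1 in Python 3.11.15.

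Ribosomal protein and histone genes were found by symbol, leaving out Rps6k kinases, pseudogenes and symbols ending in l1. Genes were named by rule: the 15 with most unmethylated peaks, the 10 peaks of highest −log10 q, up to 4 genes per list, 12 non-coding genes, and 3 peaks on each side of the threshold. Further genes with strong peaks at ends and starts were chosen after their values were seen. The peaks and lists were chosen with earlier results of these data known. Some snRNA sequences are not reported here.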

Additional observations from a re-analysis of the deposited data

How the results depend on the processing

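Of 77 values under other settings, 37 stayed within the interval of the main share or within 1.5 times the main count, among them all 8 without chromosome X and all 8 with stricter methylation lists. With a Pol2 −log10 q of at least 5, 10 genes had 3 or more unmethylated peaks. With a fold of at least 5, 175 peaks remained, 37.1% at gene ends, 34.3% at starts, 20% with lens H3K4me2, and 0 genes had 3 or more. When a methylated region within 1 kb counted, 235 peaks remained, with 52.3% at ends, 12.3% at starts, 17.4% between genes, 6.81% methylated in KD cells and 8.51% in lens, 8 genes with 3 or more and 15 non-coding RNA genes. When a region had to cover the summit, 828 peaks were unmethylated, with 26.2% at ends, 51.9% at starts, 9.54% between genes, 50.7% methylated in KD cells and 49.0% in lens, and 98 non-coding RNA genes. Joining peaks within 1 kb left 1 gene with 3 or more, and gene bodies alone 7. The share at ends was 32.6% for 0 to 2 kb past the end. The share at starts was 18.3% within 1 kb and 44.5% with the starts of all annotated transcripts. With 2 kb around them, 76 non-coding RNA genes had a peak. Single KD marks gave 7.62% (H3K4me1), 3.33% (H3K4me2) and 1.67% (H3K4me3), and lens regions within 1 kb gave 33.1%.

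Other settings were chosen after seeing the data. Placing ends before starts gave 55.95% at ends and 16.9% at starts, and with the starts of all transcripts 35% were at ends. With 1 mark alone in the rule, H3K4me1 left 10243 peaks (3.39% at ends), H3K4me2 left 841 (35.9%) and H3K4me3 left 5405 (13.0%). The causes of these shifts were not tested beyond what each setting changes by construction. No paired analysis was possible because each mark and condition has 1 deposited list, in which any replicates are not separated. Depth limits the weak peaks most, and the MACS2 lists do not give it.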

Other observations

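Chromosome X had the highest share of unmethylated Pol2 peaks, 29 of 479 (6.05%), against 2.44% over the genome and between 0.739% on chromosome 8 and 4.43% on chromosome 14 elsewhere. Of the 29, 16 lay at gene ends, Rpl10, Rpl36a, Rpl39, Rps4x and Timp1 among the genes, whereas 11 of the 450 methylated peaks of the chromosome did. Without chromosome X, 45.8% of the other 391 unmethylated peaks lay at gene ends.

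Annotated pseudogenes lay under 5 of the 56 unmethylated peaks between genes (8.93%, 3.87 to 19.3%) and under 23 of 2045 methylated peaks there (1.12%, 0.751 to 1.68%). Reads from a pseudogene and its parent gene can be shared, and their part was not tested. At Ctnnb1, which encodes β-catenin, an unmethylated peak with a fold of 12 lay 72 bp from the start and 101 bp from a methylated region.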
